A study of Bos taurus with 6 samples.

Results

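The mitochondrial ribosomal protein genes were followed in primary hepatocytes of 1-day-old calves that received palmitic acid, a saturated fatty acid, with or without indole-3-acetic acid (3-IAA), a tryptophan-derived indole. They were taken as all loci of the count table whose gene name begins with MRPL or MRPS and a digit, which gave 76 of 36577 loci, 48 named MRPL for the large subunit and 28 named MRPS for the small subunit. The 76 loci carry 75 names, since MRPL33 stands on 2 loci, and the best Swiss-Prot hit in the deposited annotation named a ribosomal protein for 75 of the 76 loci. Poly(A)-selected RNA was sequenced in 6 libraries: 3 of cells given 400 µmol/L palmitic acid and 200 µmol/L 3-IAA (PA + 3-IAA), and 3 of cells given 400 µmol/L palmitic acid and the solvent DMSO (PA + DMSO). All cells were wild type, came from fasted healthy female calves and grew in medium with serum, and every library had palmitic acid, so that no comparison with cells free of it was made. The labels do not say whether the 3 libraries of a group came from separate calves or cultures, and p-values therefore measure only the spread between these libraries, which may be technical.

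The mitochondrial ribosome, or mitoribosome, translates the few mRNAs that mitochondrial DNA encodes, all of them for membrane subunits of the respiratory chain and ATP synthase. Its ribosomal RNAs come from mitochondrial DNA, whereas all of its proteins are encoded in the nucleus, made in the cytosol and imported. Some of these proteins descend from bacterial ribosomal proteins and others are found only in mitochondria. Hepatocytes are rich in mitochondria, where they oxidise fatty acids such as palmitate.

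More mitochondrial ribosomal protein transcripts rose than fell with 3-IAA, and the changes were small. Of the 75 members that passed the filter on low counts, 27 (36%) rose and 6 (8%) fell at an adjusted p under 0.05 by edgeR's quasi-likelihood test, where 25.4% of all 15576 genes tested rose, 25.8% fell and 51.2% did either. The median log2 fold change of PA + 3-IAA over PA + DMSO was 0.16 over the members and 0.00 over all genes tested. Fitted changes were above 0 in 50 members and below 0 in 25. No member that passed the test changed by 1 or more on the log2 scale, and 7 of the 33 changed by 0.5 or more. The 3 PA + 3-IAA libraries lay wholly above the 3 PA + DMSO libraries in 33 members (44%) and wholly below them in 9 (12%), where the shares over all genes tested were 31.5% and 31% by the same measure.

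Replicate 3 of PA + DMSO stood apart from its group. On the first principal component of all genes tested, which held 78.5% of the variance, it lay at -15.7, whereas the PA + 3-IAA libraries lay between 41.2 and 41.8 and the other PA + DMSO libraries at -54.0 and -54.7. Among the 27 members that rose it was the highest PA + DMSO library in 24, and among the 6 that fell it was the lowest in 5. Without it, 35 of 75 members rose (46.7%) and 6 fell, with a median log2 fold change of 0.17, where 30.9% of all genes tested rose and 29.7% fell. Scaling by library total in place of TMM (trimmed mean of M-values) raised the share of rises among all changed genes to 59.3%, against 49.7% with TMM, and the share among changed members to 87.5%, against 81.8%.

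Total counts ranged over 21159388 to 22562450 in PA + 3-IAA libraries and 16580723 to 20765358 in PA + DMSO libraries, and the members held 0.199 to 0.207% of them in PA + 3-IAA and 0.176 to 0.189% in PA + DMSO. Hepatocyte markers were present throughout and 10 of 12 rose, where 25.4% of all genes tested rose and 25.8% fell. The summed level of these markers was 43125 to 48576 CPM (read counts scaled to a common library size) in PA + 3-IAA and 29204 to 33238 CPM in PA + DMSO. Markers of other liver cells were also present: the 10 endothelial markers summed to 152 to 168 CPM in PA + 3-IAA and 70.1 to 123 CPM in PA + DMSO (5 rose, 2 fell), and the 9 macrophage markers to 145 to 152 CPM in PA + 3-IAA and 62.1 to 97.1 CPM in PA + DMSO (5 rose, and 0 fell also at an unadjusted p under 0.05). The 10 stellate and fibroblast markers summed to 3801 to 4071 CPM in PA + 3-IAA and 2944 to 3712 CPM in PA + DMSO. Of the 8 of them tested, 3 rose and 2 fell. The 6 cholangiocyte markers summed to 919 to 989 CPM in PA + 3-IAA and 525 to 658 CPM in PA + DMSO (2 rose, 1 fell). No marker was at 0 counts in all libraries, and the part of cell composition in the members' changes was not tested. In bulk RNA, fewer cells of a type and less RNA per cell cannot be told apart.

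**Figure D1:**
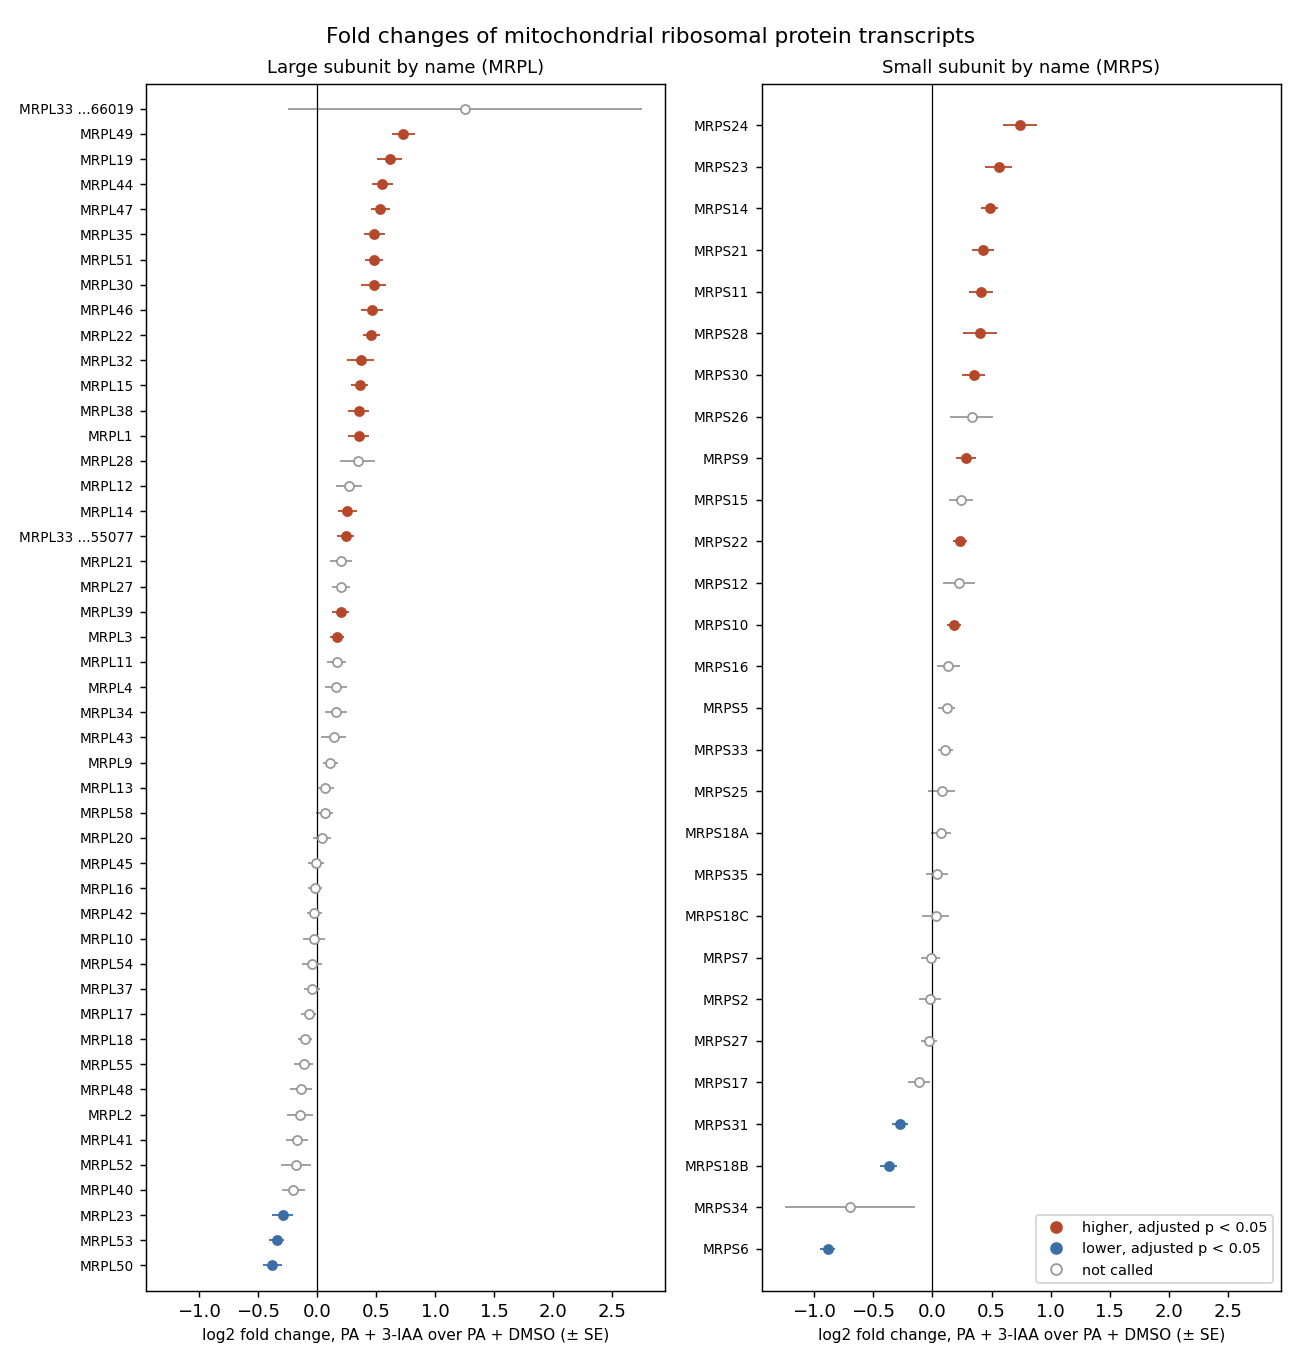
Fitted log2 fold change of PA + 3-IAA over PA + DMSO (x axis) for the 47 MRPL loci (left) and 28 MRPS loci (right) tested, ordered by size, with bars of ± 1 SE. Filled points passed edgeR's quasi-likelihood test, 27 to the right of 0 and 6 to the left, and the wide bars belong to the nearly undetected second MRPL33 locus and MRPS34.

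Levels were compared between genes on TPM (a share of all transcripts, corrected for transcript length). Mean TPM over the 6 libraries reached 10 in 46 of the 47 tested MRPL loci and 26 of the 28 MRPS loci. Among tested MRPL loci the group means ran from 2.02 to 109 TPM in PA + 3-IAA, with a median of 40.9 TPM, and from 0.92 to 108 TPM in PA + DMSO, with a median of 36.1 TPM. Among MRPS loci they ran from 0.32 to 161 TPM in PA + 3-IAA, with a median of 36.4 TPM, and from 0.50 to 136 TPM in PA + DMSO, with a median of 29.3 TPM. The order of levels was nearly the same in both groups, with a rank correlation of 0.955 across the 75 members, which share libraries. The fold change was barely related to the level across members (rank correlation -0.12 with mean TPM and -0.19 with locus length).

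By the mean of all 6 libraries the most abundant large subunit transcripts were MRPL17, MRPL38 and MRPL23, and the order below MRPL17 differed between the groups. MRPL17 (bL17m, a protein of the polypeptide exit side with a bacterial counterpart) averaged 109 ± 3.78 TPM in PA + 3-IAA and 108 ± 1.99 TPM in PA + DMSO (SD, n = 3 each), a difference within the spread of the libraries. MRPL38, which sits in the central protuberance at the top of the large subunit, averaged 106 ± 0.288 TPM in PA + 3-IAA and 79.4 ± 10.9 TPM in PA + DMSO. MRPL23 (uL23m), at the tunnel exit, averaged 74.3 ± 1.69 TPM in PA + 3-IAA and 86.1 ± 6.46 TPM in PA + DMSO. In PA + 3-IAA it lay below MRPL22, which averaged 87.4 ± 5.59 TPM there and 60.7 ± 4.95 TPM in PA + DMSO. Its PA + 3-IAA mean was also below those of MRPL33 (ENSBTAG00000055077), MRPL42 and MRPL16, at 81.9 ± 3.41, 77.4 ± 0.956 and 75.8 ± 1.94 TPM. These 3 averaged 66.6, 75.2 and 72.8 TPM in PA + DMSO. The most abundant small subunit transcripts by the same mean were MRPS33, MRPS10 and MRPS23, at 161 ± 7.06, 132 ± 3.83 and 138 ± 6.72 TPM in PA + 3-IAA, against 136 ± 7.23, 111 ± 3.36 and 88.7 ± 15.5 TPM in PA + DMSO. In PA + 3-IAA, MRPS10 and MRPS23 were within their spread of each other, and in PA + DMSO MRPS33 stood above both. MRPS17 averaged 104 ± 10.1 TPM in PA + 3-IAA, below MRPS23, and 108 ± 5.14 TPM in PA + DMSO, above MRPS23. These other members were named after their values were seen.

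**Figure D2:**
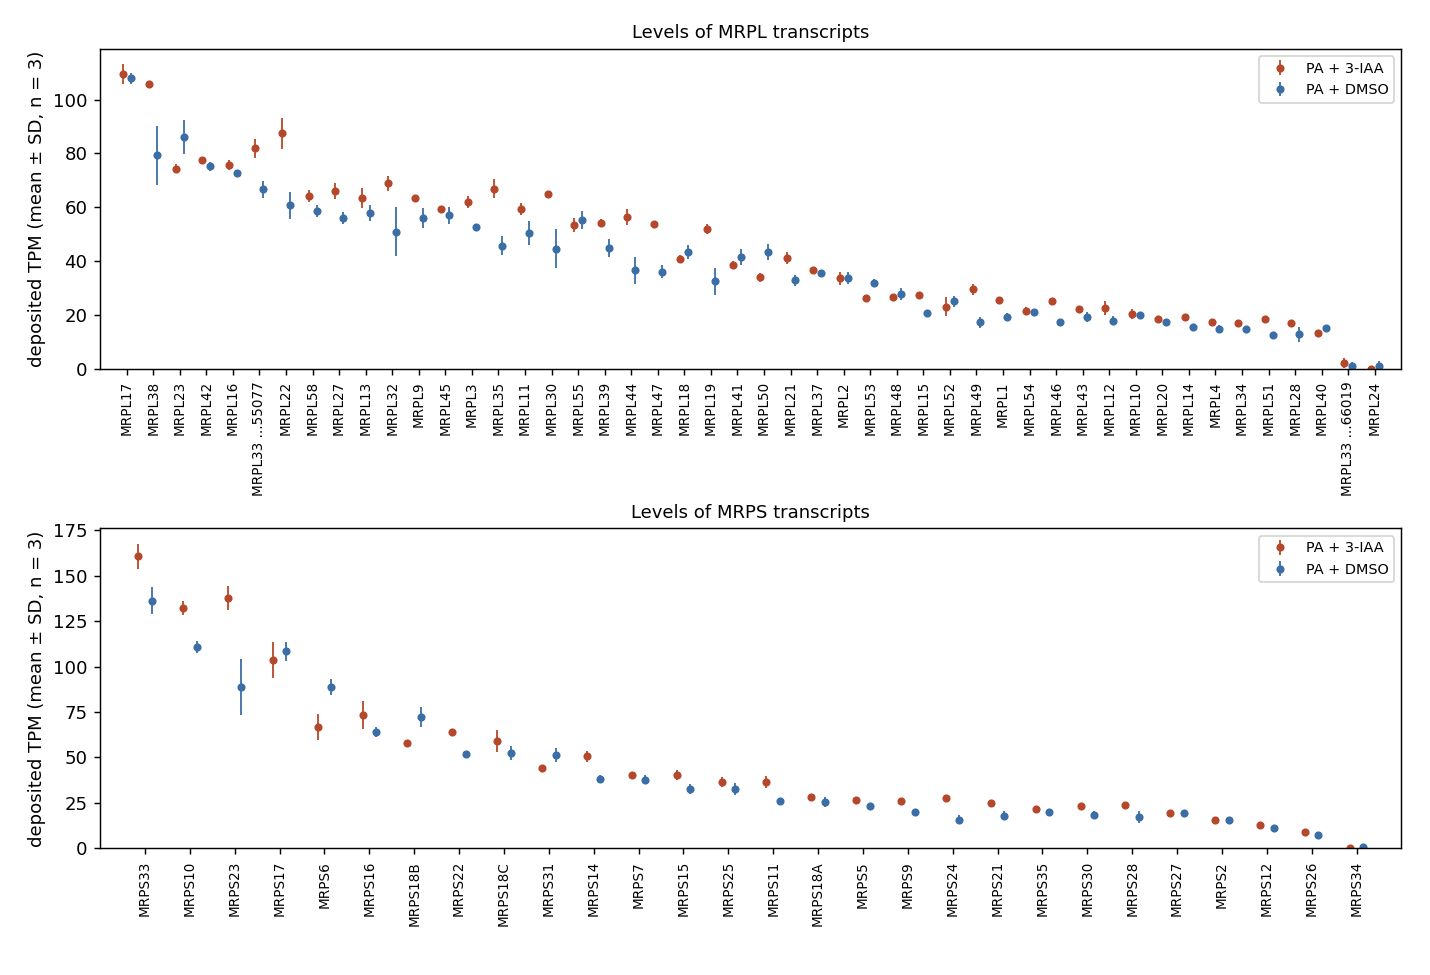
Deposited TPM (y axis, mean ± SD of 3 libraries) of every MRPL locus (top) and MRPS locus (bottom), ordered by the mean over the 6 libraries, with PA + 3-IAA in red and PA + DMSO in blue. Nearly all loci lie between 10 and 161 TPM, and MRPL24, MRPS34 and the second MRPL33 locus lie near 0.

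In summed TPM both subunits were higher with 3-IAA, and in summed CPM the small subunit was not. The MRPL loci together held 2136, 2152 and 2123 TPM in the PA + 3-IAA libraries, against 1824, 1805 and 1936 TPM in the PA + DMSO libraries, a ratio of the means of 1.15. The MRPS loci together held 1354, 1384 and 1351 TPM in PA + 3-IAA, against 1179, 1188 and 1242 TPM in PA + DMSO, a ratio of 1.13. In both TPM sums each PA + 3-IAA library lay above each PA + DMSO library, and replicate 3 was the highest of the PA + DMSO libraries. In summed CPM the MRPL loci averaged 1221 ± 31.8 in PA + 3-IAA and 1099.9 ± 43.5 in PA + DMSO (SD, n = 3 each), a ratio of 1.11. The MRPS loci together held 736, 773 and 753 CPM in PA + 3-IAA, against 737, 748 and 769 CPM in PA + DMSO, so that the groups overlapped and the ratio was 1.00. Without the MRPS6 locus, described further on, the MRPS sum averaged 680.4 ± 17.9 CPM in PA + 3-IAA and 615 ± 24.4 CPM in PA + DMSO. No test was made of a sum over chosen genes.

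Over all tested loci, the called shares and medians of the large and small subunit sets lay close together. They lay further apart without overlapping or copied loci, as given further on. Of 47 MRPL loci tested, 17 (36.2%) rose and 3 (6.38%) fell, with a median log2 fold change of 0.16. Of 28 MRPS loci 10 (35.7%) rose and 3 (10.7%) fell, with a median of 0.13. The shares over all genes tested were 25.4% and 25.8%. The number of MRPS rises moved with the libraries, being 6 without replicate 1 or without replicate 2 of PA + DMSO and 13 without replicate 3. Rises over all genes tested moved too, from 3963 with all libraries to 3149, 2986 and 4918 without replicates 1, 2 and 3 of PA + DMSO. The difference of the medians, MRPL minus MRPS, was 0.04 on the log2 scale and changed sign with the libraries, being -0.02 without PA + DMSO replicate 1, 0.07 without replicate 2 and -0.00 without replicate 3. MRPL loci held 61.1 ± 0.178% of the members' TPM in PA + 3-IAA and 60.7 ± 0.311% in PA + DMSO (SD, n = 3 each). The ratio of summed MRPL to summed MRPS TPM was 1.58, 1.55 and 1.57 in PA + 3-IAA, against 1.55, 1.52 and 1.56 in PA + DMSO, and the groups overlapped.

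Names and structure differ for a pair of small subunit names. The deposited protein annotation gives MRPS30 and MRPS18A the systematic names mL65 and mL66, which place them in the large subunit. MRPS30 had 21.93, 21.11 and 21.999 CPM in PA + 3-IAA, against 15.2, 16.5 and 19.4 CPM in PA + DMSO, and rose (log2 fold change 0.35, SE 0.10, adjusted p 0.0141 by edgeR's quasi-likelihood test). Its call was lost without replicate 1 or 3 of PA + 3-IAA and without replicate 1 or 2 of PA + DMSO, where the adjusted p reached 0.0554. MRPS18A had 23.59, 24.002 and 23.35 CPM in PA + 3-IAA, against 21.60, 20.80 and 25.08 CPM in PA + DMSO, and the groups overlapped. With both counted in the large subunit, 18 of 49 large subunit loci rose (36.7%) and 3 fell (6.12%), with a median of 0.16. Then 9 of 26 small subunit loci rose (34.6%) and 3 fell (11.5%), with a median of 0.13, beside 25.4% and 25.8% of all genes tested.

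**Figure D3:**
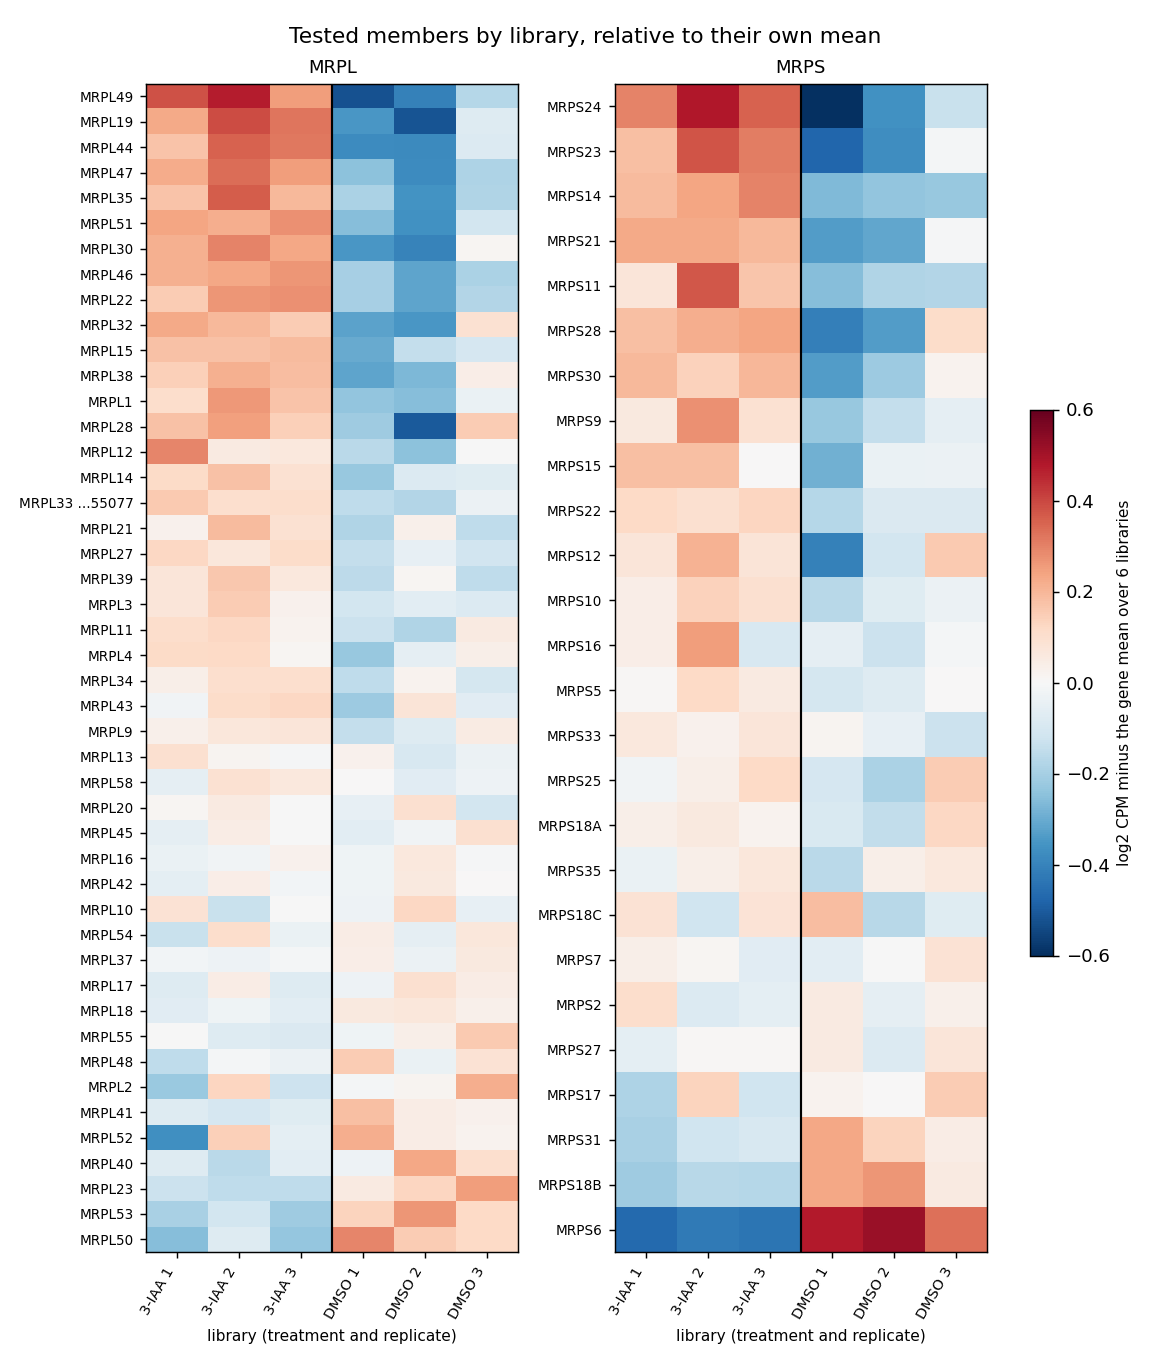
Log2 CPM of the 72 tested members with a mean of at least 10 TPM, as the difference from each gene's mean over the 6 libraries (colour, red above and blue below), with rows ordered by fold change and libraries in columns, PA + 3-IAA left of the black line. Replicate 3 of PA + DMSO is paler than the other PA + DMSO libraries in most of the rows that rose.

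Among large subunit proteins, MRPL49 (mL49, a protein found only in mitochondria; ENSBTAG00000005075) had the largest rise that passed the test. It had 38.01, 40.39 and 34.68 CPM in PA + 3-IAA, against 20.32, 21.99 and 25.89 CPM in PA + DMSO, with no overlap between the groups. The fitted rise was 1.66-fold (log2 fold change 0.73, SE 0.10, adjusted p 0.000341 by edgeR's quasi-likelihood test). In RefSeq's cattle annotation (ARS-UCD2.0) the gene overlaps SYVN1, a ubiquitin ligase of the endoplasmic reticulum, and the use of strand in counting is not given in the sources used here. SYVN1 averaged 48.2 ± 1.86 CPM in PA + 3-IAA and 241 ± 58.4 CPM in PA + DMSO (SD, n = 3 each), and so moved the other way (log2 fold change -2.32, adjusted p 0.000195 by edgeR's quasi-likelihood test).

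MRPL19 (bL19m; ENSBTAG00000002557) is the counterpart of a bacterial protein at the interface of the subunits. It had 31.27, 35.02 and 33.37 CPM in PA + 3-IAA, against 20.96, 18.61 and 25.33 CPM in PA + DMSO, and rose 1.53-fold (adjusted p 0.00129 by edgeR's quasi-likelihood test). MRPL44 (mL44; ENSBTAG00000011514) has a ribonuclease III fold, and mutations of the human gene cause an infantile cardiomyopathy. It had 52.3, 59.3 and 57.8 CPM in PA + 3-IAA, against 35.8, 35.7 and 43.9 CPM in PA + DMSO, and rose 1.47-fold (adjusted p 0.000942). Both transcripts were highest in replicate 2 of PA + 3-IAA, and replicate 3 was the highest of their PA + DMSO libraries.

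MRPL47 (uL29m; ENSBTAG00000002462), at the exit of the tunnel through which the nascent chain leaves, had 24.87, 26.89 and 25.40 CPM in PA + 3-IAA, against 18.003, 16.42 and 18.76 CPM in PA + DMSO, and rose 1.45-fold (adjusted p 0.000528 by edgeR's quasi-likelihood test). It overlaps ACTL6A in RefSeq, whose log2 fold change was -0.04 and did not pass the test. MRPL23 (uL23m; ENSBTAG00000000103), also at the exit, had 13.14, 12.94 and 12.96 CPM in PA + 3-IAA, against 14.95, 15.73 and 17.14 CPM in PA + DMSO, and fell 1.22-fold (adjusted p 0.0182). That call was lost with scaling by library total and without each of the PA + 3-IAA libraries in turn, where its adjusted p reached 0.0625. MRPL24 (uL24m) was not tested: it had 0 counts in every library but replicate 2 of PA + DMSO, which had 16.6 expected counts, and 3 counts correspond to 0.133 to 0.181 CPM at these depths. MRPL22 and MRPL45, named here for their place at the exit after their values were seen, had log2 fold changes of 0.46 (adjusted p 0.000758 by edgeR's quasi-likelihood test) and -0.01 (adjusted p 0.921).

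MRPL35 (bL35m) and MRPL51 (mL51) completed the 6 largest rises of the large subunit. MRPL35 had 20.3, 23.2 and 20.7 CPM in PA + 3-IAA, against 15.8, 14.1 and 15.9 CPM in PA + DMSO, and rose 1.40-fold (adjusted p 0.00167 by edgeR's quasi-likelihood test). MRPL51 had 35.4, 35.0 and 36.4 CPM in PA + 3-IAA, against 25.3, 23.4 and 27.9 CPM in PA + DMSO, and rose 1.39-fold (adjusted p 0.000786). It overlaps VAMP1, whose log2 fold change of 0.12 did not pass the test.

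In the central protuberance, MRPL38 had 76.4, 80.2 and 78.6 CPM in PA + 3-IAA, against 55.6, 57.3 and 71.1 CPM in PA + DMSO, and rose 1.28-fold (adjusted p 0.00945 by edgeR's quasi-likelihood test). MRPL58 (mL62), a peptidyl-tRNA hydrolase that rescues stalled mitoribosomes and is also a structural part of them, had 23.04, 25.47 and 24.98 CPM in PA + 3-IAA, against 23.97, 22.87 and 23.46 CPM in PA + DMSO. Its groups overlapped, with a log2 fold change of 0.06 and an SE of 0.07. MRPL46 (mL46), also of the protuberance and named for its neighbour, stands next to MRPS11 in RefSeq's cattle annotation. MRPL46 had 11.82, 11.98 and 12.26 CPM in PA + 3-IAA, against 8.88, 8.21 and 8.95 CPM in PA + DMSO, and both genes of the pair rose (log2 fold changes of 0.47 and 0.41, adjusted p 0.00243 and 0.00737 by edgeR's quasi-likelihood test).

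MRPL12 (bL12m) forms the flexible stalk that recruits translation factors, and in human cells it has also been reported to bind the mitochondrial RNA polymerase. It had 15.4, 13.1 and 13.2 CPM in PA + 3-IAA, against 11.3, 10.7 and 12.6 CPM in PA + DMSO, so that the groups did not overlap, and it missed the threshold (log2 fold change 0.27, SE 0.11, adjusted p 0.0573 by edgeR's quasi-likelihood test). Leaving out each library in turn gave log2 fold changes of 0.19 to 0.34 and an adjusted p of up to 0.217, and it passed only without replicate 3 of PA + DMSO (0.34, adjusted p 0.00666). The stalk base proteins MRPL10 (uL10m) and MRPL11 (uL11m), named by role after their values were seen, had log2 fold changes of -0.03 and 0.16 and did not pass the test.

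The other falls of the large subunit were in MRPL50 and MRPL53, both found only in mitochondria. MRPL50 (mL50; ENSBTAG00000008962) had 20.6, 23.2 and 20.9 CPM in PA + 3-IAA, against 30.04, 27.26 and 26.64 CPM in PA + DMSO, and fell 1.30-fold (adjusted p 0.00379 by edgeR's quasi-likelihood test). MRPL53 (mL53; ENSBTAG00000016599) had 45.6, 48.2 and 44.9 CPM in PA + 3-IAA, against 57.1, 62.5 and 56.5 CPM in PA + DMSO, and fell 1.27-fold (adjusted p 0.0018). In both genes every PA + 3-IAA library lay below every PA + DMSO library.

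**Figure D4:**
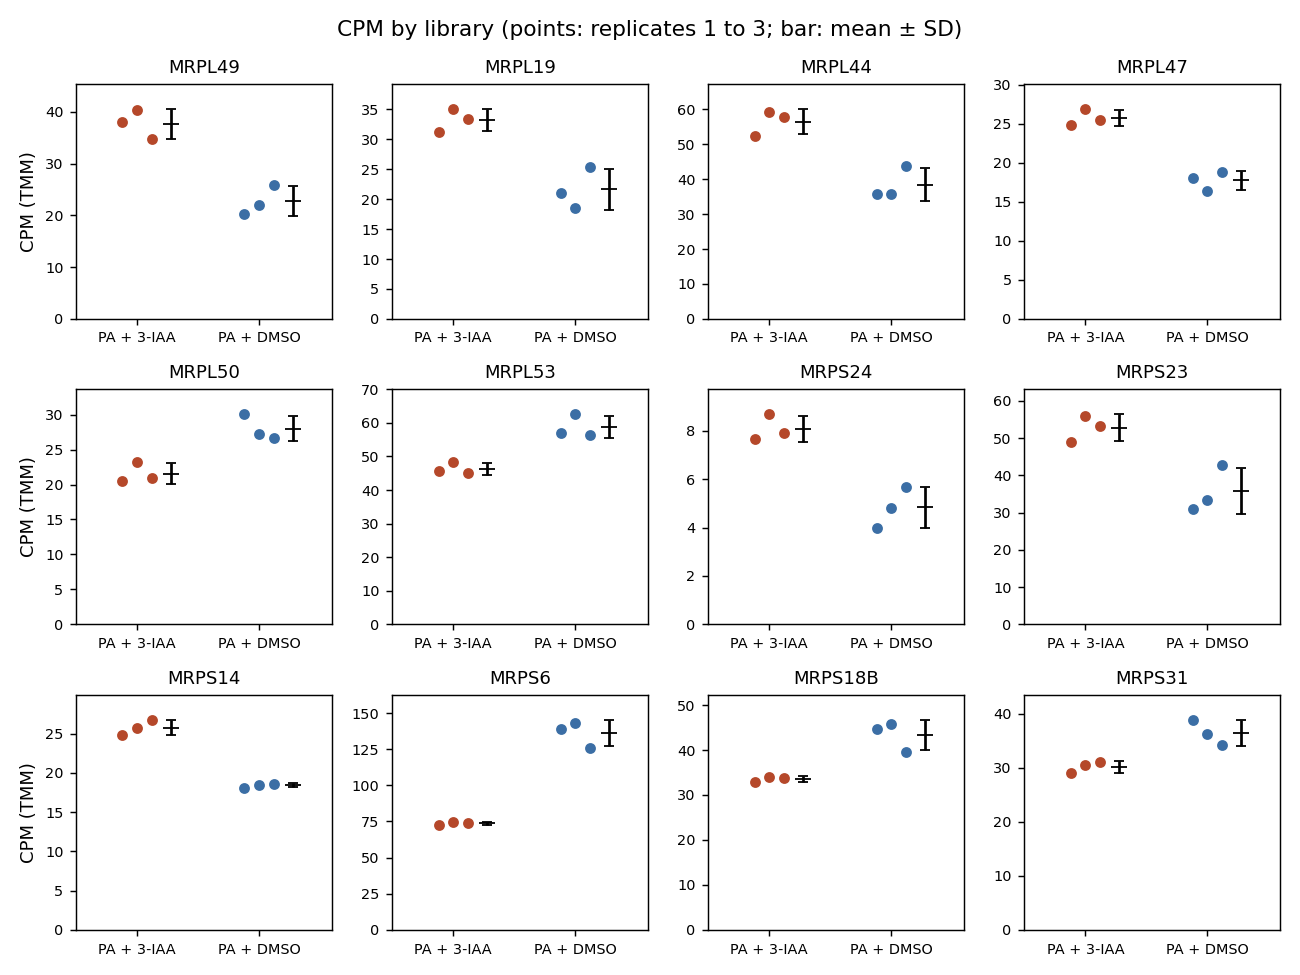
CPM (y axes, from 0) in each library of 6 MRPL and 6 MRPS loci, with PA + 3-IAA in red left of PA + DMSO in blue and a black bar for the mean ± SD of 3 libraries. The groups do not overlap in any panel, and MRPL49, MRPL19, MRPL44, MRPL47, MRPS24, MRPS23 and MRPS14 are higher in PA + 3-IAA whereas MRPL50, MRPL53, MRPS6, MRPS18B and MRPS31 are lower.

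In the small subunit the largest rise was in MRPS24 (uS3m; ENSBTAG00000007398), the counterpart of the bacterial protein that lines the entry of the mRNA channel. It had 7.636, 8.674 and 7.923 CPM in PA + 3-IAA, against 3.995, 4.82 and 5.662 CPM in PA + DMSO, and rose 1.67-fold (log2 fold change 0.74, SE 0.14, adjusted p 0.0022 by edgeR's quasi-likelihood test). MRPS23 (mS23; ENSBTAG00000012366), found only in mitochondria, had 48.9, 56.0 and 53.4 CPM in PA + 3-IAA, against 31.1, 33.4 and 42.8 CPM in PA + DMSO, and rose 1.47-fold (adjusted p 0.00402). In both, replicate 3 of PA + DMSO was the nearest to the PA + 3-IAA libraries, and without it the log2 fold changes were 0.88 and 0.71.

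MRPS14 (uS14m), a protein of the head that binds the ribosomal RNA, had 24.8, 25.7 and 26.8 CPM in PA + 3-IAA, against 18.1, 18.5 and 18.6 CPM in PA + DMSO, and rose 1.40-fold (adjusted p 0.000475 by edgeR's quasi-likelihood test). The spread of its PA + DMSO libraries was the smallest of the 5 leading MRPS rises. MRPS21 (bS21m) had 30.59, 30.57 and 29.88 CPM in PA + 3-IAA, against 20.72, 20.99 and 25.99 CPM in PA + DMSO, and rose 1.34-fold (adjusted p 0.00405). MRPS11 (uS11m), of the platform, had 14.5, 17.8 and 15.4 CPM in PA + 3-IAA, against 11.5, 12.2 and 12.2 CPM in PA + DMSO, a 1.33-fold rise.

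MRPS10 (uS10m) had 109, 117 and 114 CPM in PA + 3-IAA, against 94.9, 101 and 104 CPM in PA + DMSO, and its log2 fold change of 0.18 passed the test (adjusted p 0.0276 by edgeR's quasi-likelihood test). That call was lost when replicate 2 or 3 of PA + 3-IAA or replicate 1 or 2 of PA + DMSO was left out, with an adjusted p of up to 0.110. MRPS12 (uS12m), which lies at the decoding centre, had 12.33, 13.54 and 12.35 CPM in PA + 3-IAA, against 8.829, 10.84 and 13.04 CPM in PA + DMSO. It did not pass the test with all libraries (log2 fold change 0.22, adjusted p 0.196 by edgeR's quasi-likelihood test) and, of the fits that left out a library, passed only without replicate 3 of PA + DMSO (0.39, adjusted p 0.00376). The others had log2 fold changes from 0.09 and an adjusted p of up to 0.598. MRPS33, the most abundant small subunit transcript, had 51.3, 50.0 and 51.6 CPM in PA + 3-IAA, against 49.5, 47.3 and 44.8 CPM in PA + DMSO, with a log2 fold change of 0.11 that did not pass the test.

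The MRPS18 genes encode related proteins that occupy different places. MRPS18C (bS18m) takes the place of the bacterial protein, and it had 16.3, 14.2 and 16.3 CPM in PA + 3-IAA, against 17.5, 13.7 and 14.7 CPM in PA + DMSO, with a log2 fold change of 0.03 and an SE of 0.11. MRPS18B (mS40; ENSBTAG00000006936) is a separate small subunit protein, and it had 32.89, 33.96 and 33.79 CPM in PA + 3-IAA, against 44.7, 45.8 and 39.5 CPM in PA + DMSO. It fell 1.29-fold (adjusted p 0.00208 by edgeR's quasi-likelihood test). MRPS18A, of the large subunit, had a log2 fold change of 0.07 that did not pass the test, so that of these 3 genes MRPS18B alone passed it; the differences between them were not tested. MRPS31 (mS31; ENSBTAG00000015522) had 29.01, 30.57 and 31.04 CPM in PA + 3-IAA, against 38.9, 36.3 and 34.2 CPM in PA + DMSO, and fell 1.21-fold (adjusted p 0.00954).

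The locus named MRPS6 (ENSBTAG00000012594) had the largest change of all members that passed the test, and its counts may not be those of MRPS6 alone. It had 72.4, 74.5 and 73.9 CPM in PA + 3-IAA, against 139, 143 and 126 CPM in PA + DMSO, and fell 1.85-fold (log2 fold change -0.89, SE 0.06, adjusted p 6.4e-05 by edgeR's quasi-likelihood test). MRPS6 is the counterpart of a bacterial platform protein that pairs with S18. In RefSeq the gene overlaps SLC5A3, the sodium/myo-inositol cotransporter, no locus of the count table is named SLC5A3, and the deposited annotation gives SLC5A3 as the best Swiss-Prot hit of the MRPS6 locus. It was the 1 member of 76 whose best hit did not name a ribosomal protein, and reads of the 2 proteins cannot be told apart here.

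The MRPS6 locus also differed between the deposited units. In TPM it averaged 66.8 ± 7.19 in PA + 3-IAA and 88.6 ± 4.43 in PA + DMSO (SD, n = 3 each), a log2 ratio of -0.41, against -0.89 in CPM. The gap between these ratios was 0.48 for the MRPS6 locus and at most 0.14 for the other members with a mean of at least 10 TPM, whose median with it was 0.06. With the locus, summed MRPL over summed MRPS CPM was 1.62 ± 0.00843 in PA + 3-IAA and 1.46 ± 0.0265 in PA + DMSO (SD, n = 3 each). Leaving the locus out, it was 1.79 ± 0.00858 in PA + 3-IAA and 1.79 ± 0.00562 in PA + DMSO. Without it, 27 of 74 members rose (36.5%) and 5 fell (6.76%), and 10 of 27 MRPS loci rose (37.0%) and 2 fell (7.41%). Of all genes tested 25.4% rose and 25.8% fell.

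Some members were too low or too entangled to read. MRPS34 had 0.0853, 0.459 and 0.699 CPM in PA + 3-IAA, against 0.493, 0.815 and 0.708 CPM in PA + DMSO, with a log2 fold change of -0.70 and an SE of 0.55. The second MRPL33 locus (ENSBTAG00000066019) had 0, 21.12 and 10.98 expected counts in PA + 3-IAA, against 0, 11.18 and 0 in PA + DMSO, and gave no readable fold change. The other MRPL33 locus (ENSBTAG00000055077) rose (log2 fold change 0.24, adjusted p 0.023 by edgeR's quasi-likelihood test), a call lost with DESeq2 and on leaving out any library but replicate 3 of PA + DMSO (adjusted p up to 0.0825). MRPL17 has an expressed copy with no gene name, annotated as bL17m (ENSBTAG00000058410), which averaged 24.7 ± 1.05 CPM in PA + 3-IAA and 33.4 ± 0.900 CPM in PA + DMSO (SD, n = 3 each) and fell (log2 fold change -0.43, adjusted p 0.000647), so that its reads and those of MRPL17 are uncertain. MRPS36 and MRPL36 were not analysed here under those names, and a locus annotated as bL36m (ENSBTAG00000050317) had 13.2, 10.2 and 12.7 CPM in PA + 3-IAA, against 10.1, 9.71 and 11.1 CPM in PA + DMSO.

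In RefSeq, 22 of the 75 member names overlap another gene, 14 of them a protein-coding gene. Leaving out those 14, both MRPL33 loci and MRPL17 left 58 tested members, of which 21 rose and 5 fell, with a median log2 fold change of 0.16. Of the 35 MRPL loci among them 11 (31.4%) rose and 3 (8.57%) fell, with a median of 0.16, against 17 and 3 with all members. Of the 23 MRPS loci 10 (43.5%) rose and 2 (8.7%) fell, with a median of 0.22. The shares over all genes tested were 25.4% and 25.8%, and the difference between the subunits was not tested. The choice of members to leave out was made after the values were seen.

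Members with a bacterial counterpart rose in 17 of 43 (39.5%) and fell in 2 (4.65%), with a median log2 fold change of 0.20. Members classed as found only in mitochondria rose in 10 of 32 (31.2%) and fell in 4 (12.5%), with a median of 0.05, beside 25.4% and 25.8% of all genes tested. The classes follow the numbering of the bacterial ribosome and not descent. MRPL58 and the relatives of MRPS18C, MRPS18A and MRPS18B, therefore count among the 32, and MRPS18B is a fall among them. Fitted changes were above 0 in 33 of 43 and in 17 of 32. The rises with a bacterial counterpart numbered 11 when replicate 2 of PA + 3-IAA or either of replicates 1 and 2 of PA + DMSO was left out and 24 when replicate 3 of PA + DMSO was, and the falls 1 when any PA + 3-IAA library was left out. Over all genes tested, leaving out 1 library gave 2986 to 4918 rises and 3285 to 4726 falls, against 3963 and 4015 with all. Within the large subunit the medians were 0.20 for 28 with a bacterial counterpart and -0.02 for 19 classed as found only in mitochondria. Within the small subunit they were 0.18 for 15 and 0.08 for 13. The deposited annotation gives MRPS28, counted here as found only in mitochondria, the name bS1m of a protein with a bacterial counterpart. By the annotated names, 18 of 44 members with a bacterial counterpart rose and 2 fell, with a median of 0.20. MRPS6, which has no such name, was kept among them. Of those classed as found only in mitochondria 9 of 31 then rose and 4 fell, with a median of 0.04. The difference between the classes was not tested.

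The authors' deposited table, which compares the same libraries, lists 74 members and marks 3 as Up, MRPL49, MRPL19 and MRPS24, and 1 as Down, MRPS6, where 11.1% of its 13259 genes are marked Up and 11.6% Down. No gene marked there has a log2 fold change under 0.585 in size. At an adjusted p under 0.05, 23 of the 74 members were higher and 6 lower in the authors' deposited table, where 24.5% of all its genes were higher and 25.2% lower.

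Of 5 tested mitoribosome proteins that carry other names, CHCHD1 alone (20%) passed the test with all libraries. Over all genes tested 25.4% rose and 25.8% fell. CHCHD1 rose, averaging 47.2 ± 2.5 CPM in PA + 3-IAA and 40.0 ± 1.71 CPM in PA + DMSO (SD, n = 3 each; log2 fold change 0.24, adjusted p 0.0134 by edgeR's quasi-likelihood test). None of the 5 fell at an adjusted or an unadjusted p under 0.05, and their median log2 fold change of 0.17 was close to that of the members. With replicate 1 or 2 of PA + 3-IAA or replicate 2 of PA + DMSO left out 0 rose. With PA + DMSO replicate 3 left out 3 (60%) did, where 30.9% of all genes tested rose. GADD45GIP1 (mL64) was among these 3, with a log2 fold change of 1.19 there and 0.71 with all libraries. DAP3 (mS29) and PTCD3 (mS39), the best known of the 5, had log2 fold changes of 0.02 and -0.05.

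Of 31 tested factors that assemble the mitoribosome and modify its ribosomal RNA, 4 rose (12.9%) and 8 fell (25.8%), where 25.4% of all genes tested rose and 25.8% fell, with a median log2 fold change of 0.08. Leaving out a library moved the rises between 1 (PA + DMSO replicate 1 or 2) and 7 (PA + DMSO replicate 3), with 2 without PA + 3-IAA replicate 2 or 3, and the falls to 3 to 5 without any single library other than PA + DMSO replicate 3. The same fits gave 2986 to 4918 rises and 3285 to 4726 falls over all genes tested. NGRN, which is needed for the large ribosomal RNA, averaged 17.8 ± 1.22 CPM in PA + 3-IAA and 30.4 ± 4.27 CPM in PA + DMSO (log2 fold change -0.77, adjusted p 0.000408 by edgeR's quasi-likelihood test). GTPBP6, a GTPase of late large subunit assembly and of ribosome recycling, fell by 0.60 on the log2 scale (adjusted p 0.00119), and MTERF3 by 0.34 (adjusted p 0.0107).

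Of 19 mitochondrial translation factors 6 rose (31.6%) and 2 fell (10.53%), with a median log2 fold change of 0.17. Over all genes tested 25.4% rose and 25.8% fell. The initiation factor MTIF2 averaged 13.3 ± 0.284 CPM in PA + 3-IAA and 7.74 ± 1.11 CPM in PA + DMSO (SD, n = 3 each), a log2 fold change of 0.78 (adjusted p 0.000536 by edgeR's quasi-likelihood test). MTFMT, which formylates the initiator methionyl-tRNA, averaged 14.8 ± 0.978 CPM in PA + 3-IAA and 23.4 ± 2.69 CPM in PA + DMSO and fell (log2 fold change -0.66, adjusted p 0.000641). QRSL1, a subunit of the amidotransferase that makes glutaminyl-tRNA, rose by 0.48 on the log2 scale (adjusted p 0.0011).

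Genes for transcription and RNA processing of mitochondrial DNA rose in 6 of 25 (24%) and fell in 5 (20%), with a median log2 fold change of 0.09. These shares were near the 25.4% and 25.8% of all genes tested. Without PA + DMSO replicate 3, 9 (36%) rose, where 30.9% of all genes tested did. There were 3 falls with PA + 3-IAA replicate 1 or PA + DMSO replicate 2 left out, and 2 with PA + 3-IAA replicate 3 left out. The transcription factor TFB2M had a log2 fold change of -0.75, the DNA helicase TWNK one of -0.68 and the single-stranded DNA binding protein SSBP1 one of 0.49 (adjusted p 0.000143, 0.000725 and 0.000733 by edgeR's quasi-likelihood test). TWNK is the neighbour of MRPL43 in RefSeq, whose log2 fold change of 0.14 did not pass the test.

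The templates that mitoribosomes translate did not rise. Of the 13 mRNAs encoded in mitochondrial DNA, 0 rose, also at an unadjusted p under 0.05. Falls numbered 3 (23.1%), with a median log2 fold change of -0.09 over the 13. That share of falls was near the 25.8% of all genes tested, of which 25.4% rose. The falls, ND3, CYTB and COX3, had log2 fold changes of -0.27, -0.21 and -0.21, with 0 falls without PA + 3-IAA replicate 1 or 3 and 1 without PA + DMSO replicate 2.

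The nuclear-encoded subunits of the respiratory chain and ATP synthase, most of which join the products of mitoribosomes, had a median log2 fold change of 0.15, close to that of the members. Of 74 tested, 34 rose (45.9%) and 1 fell, and 2 fell without PA + DMSO replicate 3. With all libraries 25.4% of all genes tested rose and 25.8% fell. NDUFS1, a complex I subunit, averaged 93.1 ± 2.93 CPM in PA + 3-IAA and 61.8 ± 6.66 CPM in PA + DMSO (log2 fold change 0.59, adjusted p 0.0003 by edgeR's quasi-likelihood test). Cytosolic ribosomal proteins had a median of -0.18, with 0 of 80 rising, also at an unadjusted p under 0.05, and 48 (60%) falling. That count was 24 or 25 with replicate 1 or 3 of PA + 3-IAA left out and 28 with replicate 2 of PA + DMSO left out. Falls over all genes tested numbered 3306, 3353 and 3285 in these fits, against 4015 with all libraries. The difference between the mitochondrial and cytosolic sets was not tested.

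**Figure D5:**
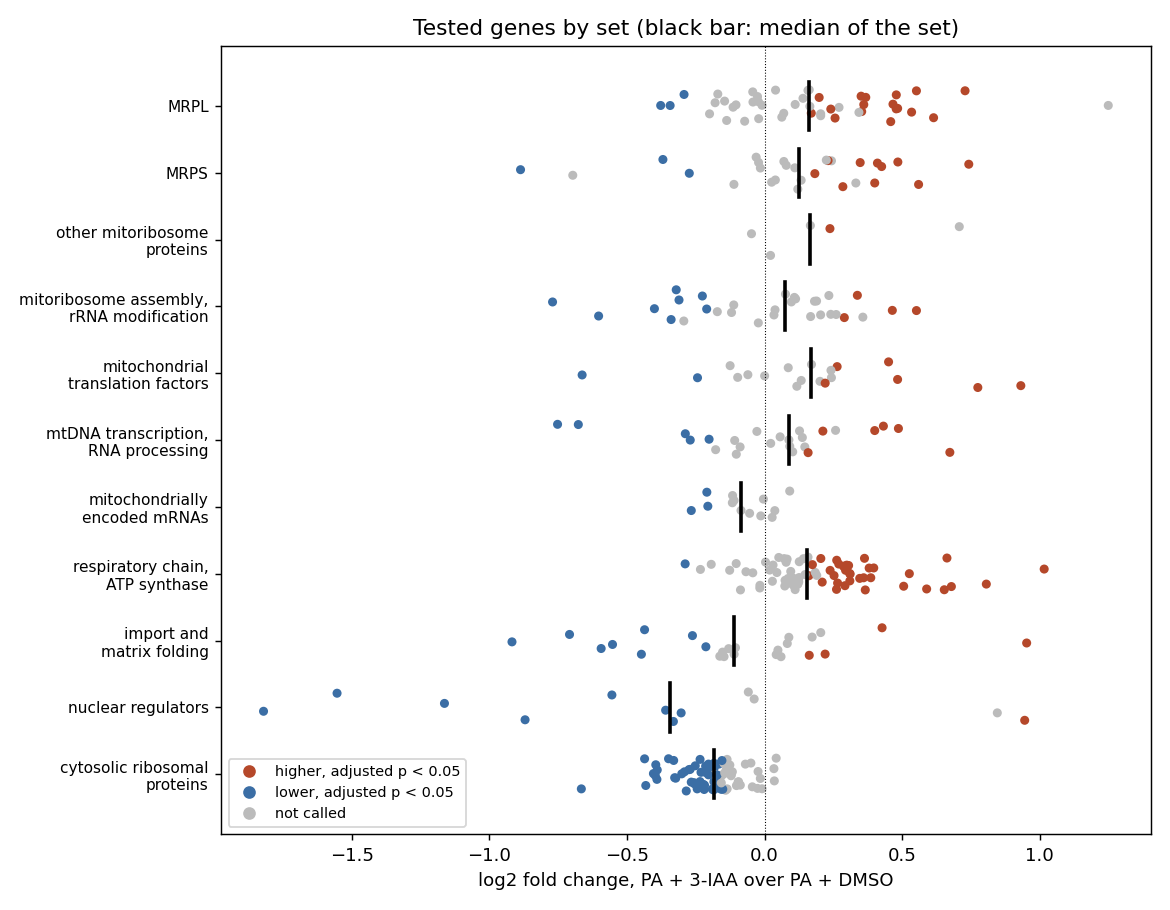
Log2 fold change of PA + 3-IAA over PA + DMSO (x axis) of each tested gene in the member sets and the related gene lists (rows), coloured by edgeR's quasi-likelihood test, with a black bar at each median. The medians lie at 0.16 for MRPL, 0.13 for MRPS, 0.15 for respiratory chain and ATP synthase subunits and -0.18 for cytosolic ribosomal proteins.

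Most of the nuclear regulators of mitochondrial genes fell. Of 12 tested, 8 (66.7%) fell and 1 rose, where 25.8% of all genes tested fell and 25.4% rose. Their median log2 fold change was -0.35, and 2 of the 12 rose without PA + DMSO replicate 3. PPARGC1A, a coactivator of mitochondrial biogenesis, averaged 1.65 ± 0.0418 CPM in PA + 3-IAA and 5.85 ± 0.803 CPM in PA + DMSO (log2 fold change -1.82, adjusted p 7.2e-05 by edgeR's quasi-likelihood test). The nuclear receptor ESRRA and the stress factor ATF5 had log2 fold changes of -0.87 and -1.16 (adjusted p 6.4e-05 and 0.000123). NRF1 and GABPA, DNA-binding factors of many mitochondrial genes, had log2 fold changes of -0.06 and -0.04 that did not pass the test.

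The list of import and matrix folding proteins also holds mitochondrial proteases such as LONP1, the channel VDAC1 and the enzyme CS. Mitochondrial ribosomal proteins need some of the listed proteins on their way to the matrix. Of the 25 genes 4 rose (16%) and 8 fell (32%). The shares over all genes tested were 25.4% and 25.8%. The median log2 fold change of the 25 was -0.11. The rises were 2 without any single library other than PA + DMSO replicate 3. The protease LONP1, the chaperone HSPA9 and the import receptor TOMM70 had log2 fold changes of -0.92, -0.71 and -0.59 (adjusted p 0.000122, 0.000138 and 0.000228 by edgeR's quasi-likelihood test).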

How the data were processed

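The deposited table gives expected counts, estimated reads per gene, and TPM per library, together with a length per locus. Per the labels' protocols the RNA was selected with oligo(dT) beads, and the submitters' processing notes list the tools DESeq2, RSEM, HISAT2 2.2.1 and cutadapt 1.9 with no role or order. The sources used here name neither genome build nor strand setting. Besides a base mean signal and a test score, the authors' deposited comparison holds log2 fold changes with SE, p-values and their adjusted form. Its fold changes, adjusted p-values and marks were read gene by gene for the members only. Over all its genes they gave the shares called and the smallest marked change.

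Expected counts were rounded and fitted over the whole table in R 4.3.3 with edgeR 4.0.16 (TMM, filterByExpr, robust quasi-likelihood test, two-sided), with Benjamini-Hochberg adjustment over 15576 genes and a threshold of 0.05. CPM uses TMM library sizes. The counting limit of 3 counts covers counting error only. On data simulated from this comparison (3 runs, 15374 to 15390 genes), edgeR recovered 64.7% of genes changed 1.5-fold and 96.5% of those changed 4-fold, and 9.67% of its calls were false. The simulation changed few genes and displaced no library, whereas 51.2% of genes passed the test here, so these shares may not hold for the data. The members, lists and tests were chosen with earlier results of these data known. Members named are the largest called rises and falls of each subunit (6 each of MRPL, 5 each of MRPS), the 3 highest in TPM, members not tested, and a fixed few (MRPS30, MRPS18A, MRPS36, MRPS18B, MRPS18C, MRPL12, MRPL58, MRPS12). Others are said to be named after their values were seen. Of each related list up to 3 genes with the smallest p are named, with DAP3, PTCD3, NRF1 and GABPA added after their values were seen. RefSeq (ARS-UCD2.0) was used for overlaps and neighbours and matched 75 of 75 names. Alternatives were DESeq2 1.42.0, limma 3.58.1 voom, RLE (median-of-ratios) scaling, library-total scaling, no filter, a strict filter, a replicate block, leaving out each library, and subunits by structure.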

Additional observations from a re-analysis of the deposited data

How the results depend on the processing

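Of the 33 members that passed the test, 23 did so under all 13 alternative fits (18 rises and 5 falls), and MRPL3, MRPL14, MRPL23, MRPL32, MRPL33, MRPL39, MRPS9, MRPS10, MRPS28 and MRPS30 did not. Leaving out 1 library gave 12 to 22 rises and 2 to 3 falls in MRPL, and 6 to 13 rises and 3 falls in MRPS. Over all genes tested the same fits gave 2986 to 4918 rises and 3285 to 4726 falls, against 3963 and 4015 with all libraries. MRPS18C ran from -0.0444 to 0.134 and turned negative without PA + 3-IAA replicate 1 or 3 and without replicate 2 or 3 of PA + DMSO. Under library-total scaling the median of all genes was 0.0746, and medians were 0.23 for all members, 0.23 for MRPL, 0.20 for MRPS, 0.15 for assembly factors, 0.24 for translation factors, 0.16 for transcription genes, -0.27 for regulators, -0.0388 for import, -0.0137 for mitochondrial mRNAs, -0.11 for cytosolic ribosomal proteins and 0.22 for the respiratory chain. That scaling gave 11 rises and 4 falls of assembly factors, 2 falls of transcription genes, 1 of mitochondrial mRNAs, 30 of cytosolic ribosomal proteins and 1 of members with a bacterial counterpart. With no filter the median of all genes was -0.00337. The cause of these shifts was not tested.

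Same-numbered libraries deviated together only weakly (correlations of 0.018, 0.029 and 0.022, each the best for its number), so that the numbers were not taken to pair them. With a replicate block, MRPL and MRPS had 16 and 10 rises and 3 falls each, and rises became 2 among other mitoribosome proteins, 2 among regulators and 2 among import genes. DESeq2 also gave 2 for import, and 13 and 9 rises in MRPL and MRPS. Without overlapping or copied members, chosen after seeing the data, MRPL had 11 rises and MRPS a median of 0.22. The MRPL to MRPS ratio was 1.62 in PA + 3-IAA and 1.46 in PA + DMSO on CPM, against 1.57 and 1.54 on TPM.

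Leaving out 1 library moved rises over 0 to 3 (other mitoribosome proteins), 1 to 7 (assembly), 1 to 2 (regulators), 2 to 5 (import) and 11 to 24 (bacterial counterpart), and falls over 3 to 9 (assembly), 2 to 5 (transcription), 0 to 3 (mitochondrial mRNAs), 24 to 69 (cytosolic ribosomal proteins), 1 to 2 (respiratory chain) and 1 to 2 (bacterial counterpart). Over all genes tested rises moved over 2986 to 4918 and falls over 3285 to 4726. Medians ran over 0.11 to 0.26 (other mitoribosome proteins), 0.0280 to 0.0874 (assembly), 0.0515 to 0.103 (transcription), -0.132 to -0.0934 (import), -0.000608 to 0.0121 (all genes) and -0.0160 to 0.0694 (MRPL minus MRPS). The number of libraries, 3 a group, and low counts limit calls for MRPL24, MRPS34 and the second MRPL33 locus.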
